A study of Mus musculus with 40 samples.

Results

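The total small RNA of mouse liver was compared with that of gastrocnemius, a calf muscle, across the mature miRNAs of one count table. The comparison used 10 of the 40 libraries of the study, 5 labelled as liver input and 5 labelled as muscle input. Input means RNA sequenced before any pull-down. All mice were described as UCP1;UPRT, offspring of a Ucp1-cre line, in which the promoter of a brown fat gene drives Cre, and a line carrying a Uprt transgene. They were male, 8 to 12 weeks old and fed standard chow, and all had been injected intraperitoneally with 4-thiouracil (4TU) at 50 mg/kg, 4 times at intervals of 48 h. Liver and muscle therefore shared genotype and treatment, the labels name no untreated group, and they do not give a genotype for each mouse. The UPRT enzyme lets labelled cells build 4TU into new RNA, but the input libraries hold labelled and unlabelled RNA alike. The liver libraries came from mice 3, 4, 5, 9 and 10 and the muscle libraries from mice 1, 2, 3, 8 and 9, so mice 3 and 9 gave both tissues.

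A miRNA is a short RNA, cut from one or both arms (5p and 3p) of a hairpin precursor, that guides Argonaute proteins to messenger RNAs and lowers their output. Targets are recognised mainly through the seed, bases 2 to 8 from the 5′ end, so miRNAs with the same seed form a family. Hepatocytes are known for miR-122, miR-192 and miR-194, and striated muscle for the myomiRs miR-1, miR-133 and miR-206, which promote and maintain muscle differentiation.

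The sequences below are those of miRNAs with large tissue differences, from RefSeq (GRCm38.p6), with the seed in capitals. Of the 318 miRNAs tested, 275 had an entry in that sequence set. Without an entry were miR-122-5p and miR-1a-3p, the leading miRNAs of liver and muscle, and miR-133a-3p, so they are not shown. The first 5 sequences were of miRNAs higher in liver, and the next 5 of miRNAs higher in muscle.
miR-192-5p: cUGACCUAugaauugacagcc
miR-194-5p: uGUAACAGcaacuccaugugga
miR-148a-3p: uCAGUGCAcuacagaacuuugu
miR-21a-5p: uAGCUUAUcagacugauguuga
miR-31-5p: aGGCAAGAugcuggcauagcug
miR-206-3p: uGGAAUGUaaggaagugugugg
miR-133b-3p: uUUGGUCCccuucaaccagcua
miR-196a-5p: uAGGUAGUuucauguuguuggg
miR-615-3p: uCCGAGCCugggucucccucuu
miR-149-5p: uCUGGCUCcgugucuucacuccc

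On GRCm38, miR-192-5p lies at chr19:6264857-6264877 on the plus strand, close to 1 of the 2 loci of miR-194-5p at chr19:6264658-6264679, with no gene annotated on the same strand. The other miR-194-5p locus, chr1:185313325-185313346, is in an intron of the antisense transcript 2010103J01Rik. The mature miR-21a-5p lies at chr11:86584120-86584141 on the minus strand, in an exon of Vmp1. The muscle miRNAs miR-206-3p (chr1:20679055-20679076) and miR-133b-3p (chr1:20682834-20682855) both lie in exons of the long non-coding RNA Gm28653. An intron of Hoxc5 on chromosome 15 holds miR-615-3p at chr15:103014969-103014990 and 1 of the 2 loci of miR-196a-5p at chr15:102973365-102973386. An intron of Gpc1 holds miR-149-5p at chr1:92850381-92850403.

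A level is the share of a library's counted miRNA reads, in counts per 1000000 counts (CPM) or percent. The liver libraries held 675682 to 1129945 counts each (median 1020158) and the muscle libraries 3750389 to 4726588 (median 4231158). A level of 3 counts corresponds to 2.66 to 4.44 CPM in a liver library and 0.635 to 0.800 CPM in a muscle library. Within a tissue the libraries resembled each other, with Spearman correlations across entries of 0.911 to 0.925 in liver and 0.933 to 0.949 in muscle. The labels held against the defining miRNAs. The myomiRs miR-1a-3p, miR-133a-3p and miR-206-3p were higher in every muscle library than in any liver library, and miR-122-5p and miR-192-5p were higher in every liver library. Differences are given as log2 fold change, liver minus muscle, from edgeR's quasi-likelihood test on the TMM scale, with Benjamini-Hochberg adjusted p, and a miRNA is called where that p is under 0.05.

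Both tissues were dominated by very few miRNAs, and by different ones. In muscle, miR-1a-3p made up 62.2, 60.1, 63.4, 59.8 and 60.3% of the counts in libraries 1 to 5. The entry miR-1b-5p, annotated on the opposite strand of a miR-1a hairpin, held a constant 1 count for every 3 of miR-1a-3p, so reads of the pair cannot be told apart. Together they took 81.5 ± 2.09% (SD, n = 5) of muscle counts. In liver, miR-122-5p made up 43.2, 37.5, 37.2, 43.3 and 38.3%, and miR-21a-5p, an abundant miRNA of many cell types, another 20.4 ± 6.21% (SD, n = 5). Liver followed with miR-192-5p (8.23 ± 1.37%) and miR-148a-3p (7.79 ± 1.62%). In each muscle library 6 to 9 entries accounted for 90% of the counts, against 12 to 19 in each liver library. At an equal depth of 675682 counts the expected number of detected entries was 456 to 501 in liver and 399 to 434 in muscle. Without that adjustment the order was the opposite, 487 to 521 in the shallower liver libraries and 563 to 620 in muscle. An equal total leaves fewer counts for the other entries in muscle, where miR-1a-3p and miR-1b-5p took 81.5%. These numbers therefore do not show which tissue held the wider range of miRNAs.

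Of the 318 miRNAs tested, 142 were higher in liver (44.7%) and 108 were higher in muscle (34%), so that 78.6% were called in either direction. A difference of at least 2 on the log2 scale was reached by 42 of those higher in liver and by 44 of those higher in muscle. The median over all 318 was 0.35. In CPM, the 5 liver and the 5 muscle values of 64.2% of the miRNAs did not overlap. These shares are the background for every count of miRNAs below.

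**Figure D1:**
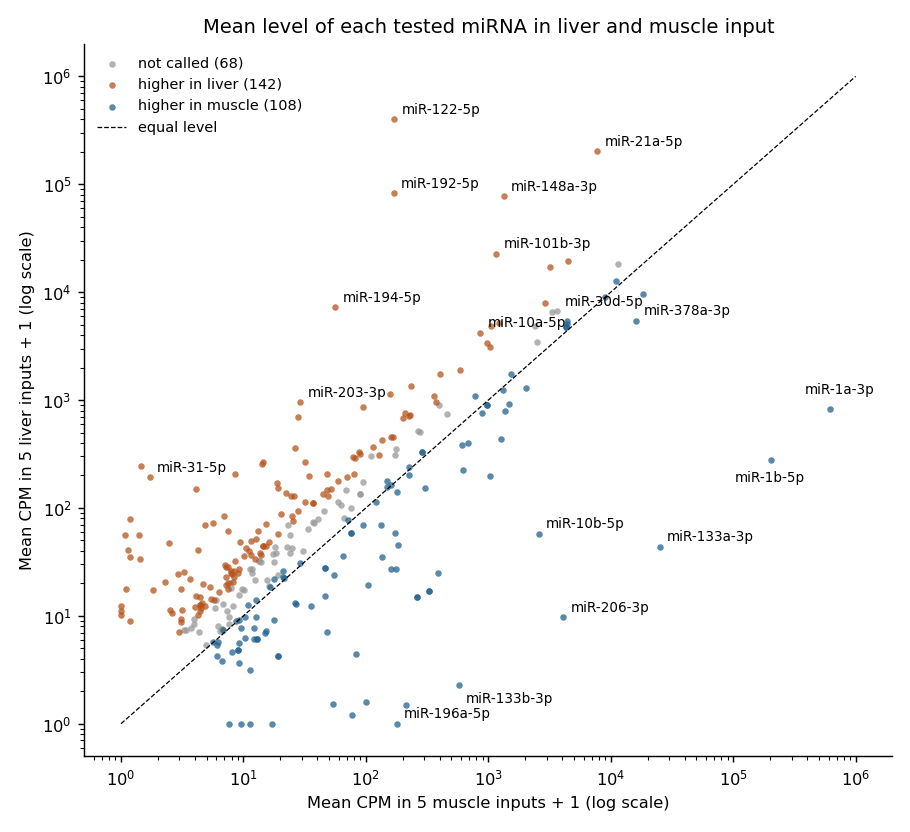
Mean CPM of each of the 318 tested miRNAs in the 5 muscle inputs (horizontal) and the 5 liver inputs (vertical), each plus 1 and on log axes. Points are coloured by call, 142 higher in liver and 108 higher in muscle, and the dashed line marks equal levels. Liver-led miRNAs such as miR-122-5p lie far above the line, and muscle-led ones such as miR-1a-3p far below it.

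The split between directions depended on the scaling. Relative to TMM, log2 fold changes moved by a median of 0.82 towards liver with total count as the only scaling. They moved by -0.87, towards muscle, when miR-122-5p, miR-1a-3p and miR-1b-5p were left out of the total, and by -0.24 with RLE, the median-of-ratios scaling of DESeq2. Total count called 193 miRNAs higher in liver and 62 higher in muscle, whereas the total without those 3 entries called 53 and 154, and RLE called 113 and 120. Under all 4 scalings 53 miRNAs were called higher in liver and 62 higher in muscle. A further 30 were called in opposite directions by different scalings.

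**Figure D2:**
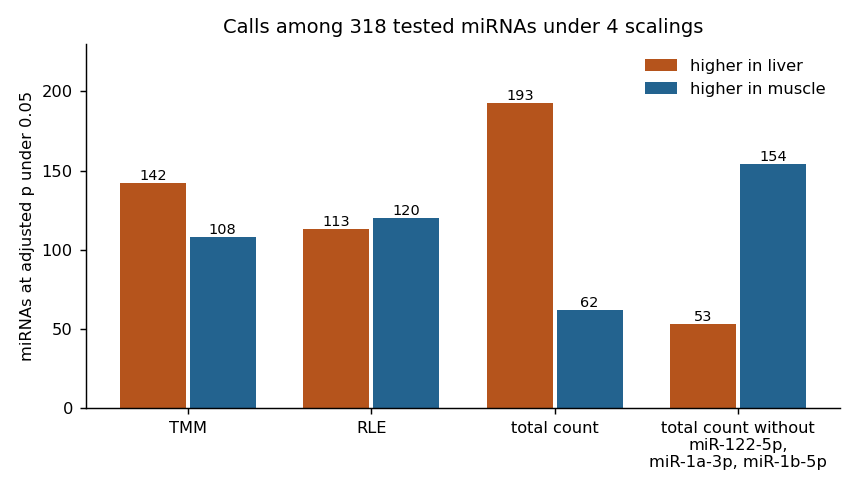
Number of miRNAs called at adjusted p under 0.05 among the 318 tested, higher in liver and higher in muscle, under 4 ways of scaling the same counts. The bars reverse in order between total count (193 and 62) and the total without the 3 leading entries (53 and 154).

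The miRNAs of hepatocytes gave the largest differences towards liver. All 11 tested members of the liver list were higher there, under each of the 4 scalings, with a median log2 fold change of 6.90 (6.26 with the 2 members that had no count in muscle set at their bound). Some members passed the filter only through liver, such as miR-192-3p and miR-802-3p (0 CPM in muscle), miR-194-2-3p (0.0846) and miR-802-5p (0.132). Their direction was fixed by the filter and adds no support. The most abundant of the list, miR-122-5p, is known as a regulator of cholesterol metabolism in hepatocytes and was 10.34 ± 0.79 (SE) higher on the log2 scale (edgeR adjusted p = 3.20e-09). Its 5 liver values lay between 371862 and 432560 CPM, and its muscle values were 494, 61.6, 52.7, 198 and 41.1 CPM. The muscle values thus varied over a wide range while the liver values did not. The other strand of the hairpin, miR-122-3p, had a mean of 241 CPM in liver and 0.465 CPM in muscle. Next in size was miR-192-5p, at 83669, 79536, 75841, 67763 and 104495 CPM in liver and between 118 and 255 CPM in muscle. It was 8.14 ± 0.37 (SE) higher in liver (edgeR adjusted p = 2.74e-12), and miR-194-5p, encoded beside it, 6.19 ± 0.24 higher (edgeR adjusted p = 4.27e-13). The pair miR-215-5p and miR-192-5p share the seed UGACCUA. Counts were also summed by seed over the entries that matched a sequence, which held 57.7% of liver and 11.7% of muscle counts, and scaled by TMM within those. Of 215 such families 163 (75.8%) were called, and this one was 8.18 higher in liver on the log2 scale. Of the 2, miR-215-5p was far less abundant, at a mean of 55.1 CPM in liver and 0.395 CPM in muscle. Few counts stood behind miR-802-5p, known for its part in hepatic glucose metabolism: 178 counts in all liver libraries and 3 in all muscle libraries, a ratio of 151 on the TMM scale (95% exact interval 50.8 to 739) and 265 by total count.

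Liver was further set apart by miR-148a-3p, also of the liver list, and by miR-21a-5p. The former, enriched in hepatocytes and known to act on lipoprotein metabolism, was 5.08 ± 0.27 (SE) higher in liver (edgeR adjusted p = 2.98e-11), with liver values of 66863 to 106250 CPM and muscle values of 1135 to 1687 CPM. The latter, linked to growth and fibrosis in many tissues, was 3.97 ± 0.31 higher (edgeR adjusted p = 4.11e-09). Its liver values of 176245, 253488, 285328, 146773 and 155829 CPM varied more than its muscle values of 6824 to 8748 CPM. The 2 groups did not overlap for either miRNA. The next most abundant was miR-101b-3p, encoded in an intron of Rcl1, with 19715 to 27312 CPM in liver and 931 to 1352 CPM in muscle (3.52 higher on the log2 scale). The largest difference outside the hepatocyte miRNAs was that of miR-31-5p. It had 188, 141, 111, 447 and 77.0 CPM in liver against 0.533 to 0.920 CPM in muscle and was 7.04 ± 0.42 higher (edgeR adjusted p = 1.08e-10).

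Epithelial miRNAs, which in liver are known from bile duct cells, were higher in liver for all 10 of the list's tested members, with a median of 3.17. Among them miR-203-5p, at a mean of 0.436 CPM in muscle, passed the filter only through liver. With the total that leaves out the 3 leading entries, 7 of the 10 were called. The other 3 were miR-375-3p, a miRNA of endocrine and gut epithelium, which turned to -0.01, miR-200c-3p and miR-141-3p. All 3 also lost their call in a fit of all 20 inputs (edgeR adjusted p = 0.328 to 0.471). A block by mouse over mice 3 and 9 alone lost those of miR-375-3p and miR-141-3p (edgeR adjusted p = 0.269 and 0.331). With no filter on low counts miR-375-3p was not called either (edgeR adjusted p = 0.0522). The miR-200 family, which holds cells in an epithelial state, was led by miR-200a-3p with 257, 578, 207, 382 and 372 CPM in liver and 19.5 to 32.8 CPM in muscle. Its neighbour miR-200b-3p was 3.44 higher on the log2 scale. Their relatives at the other locus, miR-200c-3p and miR-141-3p, were 1.25 and 1.20 higher, at means of 27.4 and 8.34 CPM in liver. The skin and epithelial miRNA miR-203-3p stood at 782 to 1133 CPM in liver and 18.6 to 40.6 CPM in muscle, and miR-182-5p at 138 to 268 and 4.65 to 11.5 CPM. Whether these came from bile duct cells, from hepatocytes or from other cells was not tested. In bulk tissue more cells of a type and more RNA per cell cannot be told apart.

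**Figure D3:**
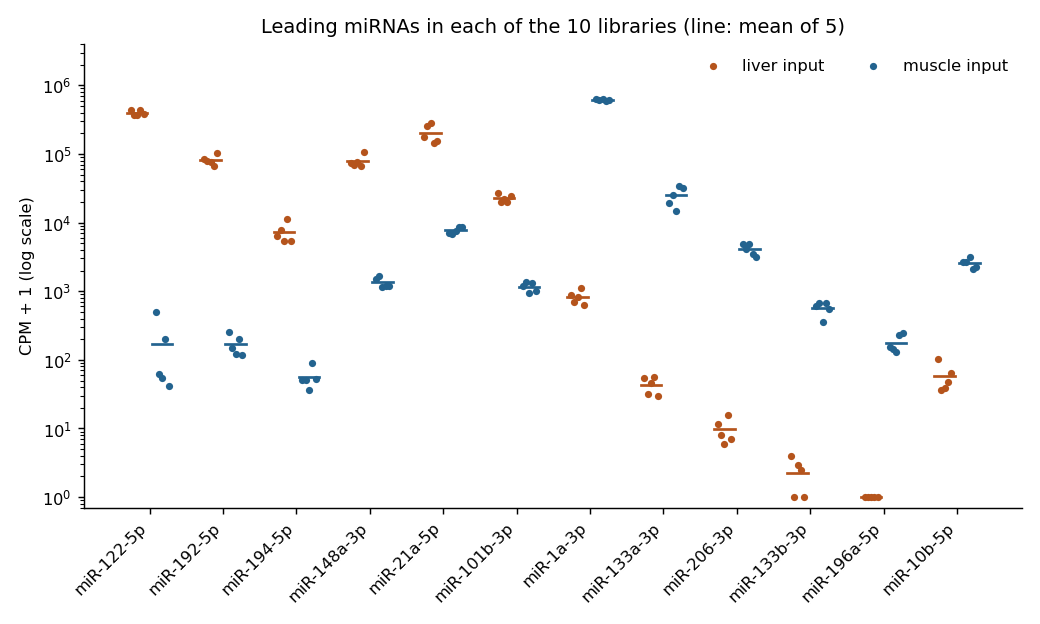
CPM plus 1, on a log axis, of 12 miRNAs in each of the 5 liver inputs and 5 muscle inputs, with a line at each mean. Each of the 6 miRNAs at the left is higher in every liver library, and each of the 6 at the right in every muscle library. At the bottom, miR-196a-5p had no count in any liver library.

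Muscle was set apart by the myomiRs, of which all 6 tested were higher in muscle, under each of the 4 scalings, with a median of -9.66. Liver levels of miR-1a-3p were 890, 705, 836, 1113 and 620 CPM, against 597977 to 633751 CPM in muscle, a log2 fold change of -10.36 ± 0.33 (SE; edgeR adjusted p = 4.07e-14). The muscle values of miR-133a-3p were more spread, at 19175, 24972, 14710, 34619 and 32102 CPM, against 28.4 to 54.8 CPM in liver (-9.98 ± 0.34; edgeR adjusted p = 4.40e-14). The skeletal muscle miRNA miR-206-3p had 4921, 4171, 4822, 3446 and 3134 CPM in muscle and 4.90 to 14.8 CPM in liver (-9.79). Encoded with it, miR-133b-3p had 350 to 680 CPM in muscle and at most 2.94 CPM in liver, with 2 liver libraries at 0. The slow-fibre miRNA miR-499-5p, hosted by a myosin gene, had 2 counts in liver and 1126 in muscle, a ratio of 221 on the TMM scale (95% exact interval 61.1 to 1829) and 126 by total count. The heart miRNA miR-208a-3p had a mean of 0.0511 CPM in muscle and was not tested, and neither was miR-208b-3p at 3.51 CPM.

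Each tissue held a low level of the other's leading miRNAs. The liver level of miR-1a-3p was 0.136% of the muscle level, and for miR-133a-3p, miR-206-3p and miR-133b-3p the shares were 0.170, 0.212 and 0.223%. In liver, miR-133a-3p stood at 4.39 to 6.06% of miR-1a-3p, and at 2.32 to 5.79% in muscle, ranges that overlap. For miR-206-3p the ratio to miR-1a-3p was 0.586 to 1.33% in liver and 0.520 to 0.791% in muscle, and 4 of the 5 liver values lay above every muscle value. The liver values rest on only 11, 8, 5, 10 and 5 counts of miR-206-3p, and whether this order exceeds counting error was not tested. In muscle miR-122-5p was at 0.0425% of its liver level, but miR-192-5p stood at 51.7 to 288% of miR-122-5p there, against 15.7 to 27.3% in liver. For miR-148a-3p the ratio to miR-122-5p was 303 to 2921% in muscle and 15.5 to 27.8% in liver. The ratios of these 2 miRNAs to miR-122-5p thus did not overlap between the tissues.

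The miRNAs of the Hox clusters, whose host genes pattern the body axis, gave the second largest differences towards muscle. Of 7 tested, 5 were higher in muscle under all 4 scalings, and the list median was -7.63 (-6.31 with the 2 members without a liver count at their bound). Of the 5, miR-196a-5p, miR-196b-5p, miR-10b-3p and miR-615-3p had means of 0.591 CPM or less in liver. They passed the filter only through muscle, so their direction was fixed. Muscle libraries had 152, 141, 128, 227 and 241 CPM of miR-196a-5p, 3726 counts in all, whereas the 5 liver libraries had none. A floor of 3 counts over the liver group puts it at least 488-fold higher in muscle on the TMM scale and at least 278-fold by total count. Its relative miR-196b-5p had 1 count in liver and 1582 in muscle, a ratio of 622 (95% exact interval 111 to 24571) on the TMM scale and 354 by total count. With 3 and 2073 counts, miR-615-3p had a ratio of 272 (95% exact interval 92.8 to 1318) on the TMM scale and 155 by total count. These intervals and bounds, and all others given here, cover counting error only. They rest on counts summed over the 5 libraries of each tissue, so the spread between mice is left out. The reads carry no molecular identifiers, so copies of a molecule could not be told from separate molecules. The list's other 2 members were miR-10a-5p and miR-10a-3p, at 1.43 and 0.68, which were higher in liver and were not called with the total that leaves out the leading entries (0.55 and -0.17) or in a fit of all 20 inputs. The call of miR-10a-3p was also lost with RLE (0.45; edgeR adjusted p = 0.158), DESeq2, no filter on low counts, a block by mouse over mice 3 and 9 alone (the mouse block below) and entries of equal reads counted once, and without liver library 2 (0.146) or 4 (0.0697).

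The sharpest contrast between close relatives was that of miR-10a-5p and miR-10b-5p, which are encoded in the HoxB and HoxD clusters. They differ at 1 base, U12A, written as the base of miR-10a-5p, its position from the 5′ end and the base of miR-10b-5p, and so share the seed. The same notation holds for the pairs that follow, the miRNA named first giving the first base. These sequences are shown because near-identical relatives with the same seed had opposite or unequal tissue levels.
miR-10a-5p: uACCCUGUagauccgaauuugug
miR-10b-5p: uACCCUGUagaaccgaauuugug
miR-27a-3p: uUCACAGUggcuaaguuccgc
miR-27b-3p: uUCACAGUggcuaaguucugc
let-7g-5p: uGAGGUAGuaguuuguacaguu
let-7i-5p: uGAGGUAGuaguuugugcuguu
miR-148a-3p: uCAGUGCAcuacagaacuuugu
miR-148b-3p: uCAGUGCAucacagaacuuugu

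Liver held 3973, 3232, 3193, 4609 and 5961 CPM of miR-10a-5p and 102, 35.4, 37.2, 47.4 and 62.8 CPM of miR-10b-5p. In muscle the order was turned around, with 687 to 1085 CPM of miR-10a-5p and 2693, 2645, 3104, 2138 and 2266 CPM of miR-10b-5p. Within a library the log2 ratio of miR-10a-5p to miR-10b-5p was 6.26 ± 0.55 (SD, n = 5) in liver and -1.58 ± 0.09 in muscle. The difference of 7.85 was tested with an exact two-sided permutation test of the 10 libraries (p = 0.00794, the smallest that 5 against 5 can give, and 0.0154 after adjustment over 31 pairs). As a family, the seed ACCCUGU stood at -0.50 (edgeR adjusted p = 0.0457). Scaled by the library total of all entries it was at 0.31 (edgeR adjusted p = 0.175), and its call was also lost with limma-voom (adjusted p = 0.0508) and with the replicate block by title number (edgeR adjusted p = 0.0601). Leaving out any 1 of the 5 liver libraries lost the call too (edgeR adjusted p = 0.0755 to 0.418). So did leaving out muscle library 1 (edgeR adjusted p = 0.0597) or 3 (0.247). A ratio within a library does not depend on the scaling between libraries.

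The same ratio was taken for each of 31 pairs of tested miRNAs with the same seed, 1 or 2 differing bases and enough counts. It differed in 22 of them (71%), and pairs that share a member, as among let-7 miRNAs, are not independent. Liver favoured miR-148a-3p over miR-148b-3p (C9U and U10C) by a log2 ratio of 5.83 ± 0.13 (SD), against 2.52 ± 0.16 in muscle. It also favoured let-7g-5p over let-7i-5p (A17G and A19U), at 1.75 ± 0.18 against -0.46 ± 0.13, so that the leading member of that pair changed between the tissues. Muscle shifted the balance towards miR-27a-3p and away from miR-27b-3p (C19U), with -0.79 ± 0.38 against -2.41 ± 0.25 in liver. It also favoured miR-26a-5p over miR-26b-5p (C11U and C21U), at 3.18 ± 0.13 against 1.54 ± 0.42. The ratio of the inflammation-linked miRNAs miR-146a-5p and miR-146b-5p (G18A and U21C) was spread in liver, at 3.17, 1.73, 1.71, 4.84 and 4.67, and lay between 0.08 and 0.73 in muscle. For these pairs p was again 0.00794, with 0.0154 after adjustment. By contrast miR-19a-3p over miR-19b-3p (U11C), from the same primary transcript, differed by -0.02, at -1.66 ± 0.18 in liver and -1.64 ± 0.36 in muscle (exact permutation p = 0.897). Reads of relatives that differ at 1 base could be split between them by the counting, and no source used here states how such reads were treated.

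**Figure D4:**
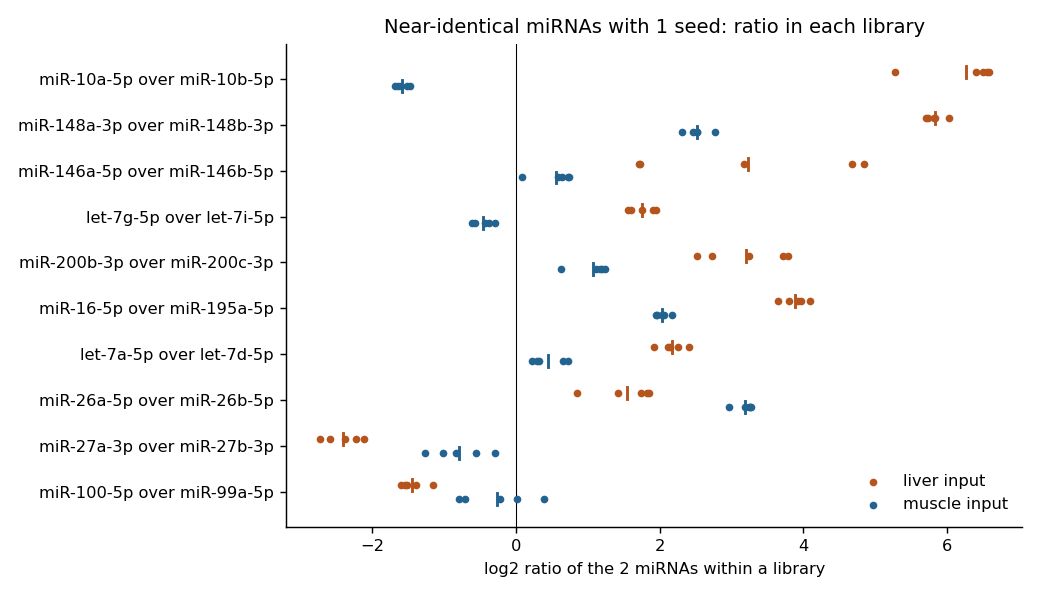
Log2 ratio of the counts of 2 near-identical miRNAs within each library, for the 10 pairs with the largest difference among the 22 called, with a short line at each mean of 5. The ratio of miR-10a-5p to miR-10b-5p lies above 5 in each liver library and below -1 in each muscle library. For every pair drawn, the liver and muscle values do not overlap.

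Several groups of moderate size were higher in muscle. The miR-378 family, whose main hairpin lies in the gene of a coactivator of mitochondrial metabolism, was higher in muscle for all 5 members, under each of the 4 scalings, with a median of -3.13. It was led by miR-378a-3p, with 4958, 4211, 5669, 4424 and 7995 CPM in liver and 14672 to 19021 CPM in muscle (-2.33 ± 0.26 SE; edgeR adjusted p = 3.30e-07). The shorter and near-identical miR-378b, miR-378c and miR-378d could share its reads. Of the miR-181 family, known from lymphocyte and muscle differentiation, 5 of 6 were higher in muscle with a median of -1.65. With total count 3 of the 6 were called. Within it, miR-181b-5p was at 13.7 to 42.9 CPM in liver and 131 to 202 CPM in muscle, and the 3p strand miR-181a-2-3p at 1.77 to 5.92 and 54.2 to 118 CPM. The miRNA miR-149-5p had a log2 fold change of -4.81 ± 0.26 (SE; edgeR adjusted p = 3.05e-11), at 264, 369, 311, 479 and 528 CPM against 15.7 to 30.8 CPM in liver. Known mostly from neurons, miR-128-3p had a log2 fold change of -2.38, with 1200 to 1356 CPM in muscle and 356 to 589 CPM in liver.

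Markers of other cell types were mixed. Among 6 tested entries listed for red blood cells, muscle had more of 4, and all 4 were entries of the overlapping miR-486a and miR-486b hairpins, whose reads cannot be told apart. That miRNA is also made by muscle, from the ankyrin gene that hosts it. Muscle held 346, 429, 262, 131 and 135 CPM of miR-486a-5p and liver 4.90 to 20.1 CPM. The erythroid miRNAs proper were not called, miR-451a at -0.55 (22.8 CPM in liver, 18.3 CPM in muscle; edgeR adjusted p = 0.188) and miR-144-3p at -0.63 (edgeR adjusted p = 0.174). Both were called towards muscle with the total without the leading entries (-1.40 and -1.50), with no filter and with the mouse block. The summed level of the list was set by the miR-486 entries in muscle. Of 8 leukocyte miRNAs 4 were higher in liver and 2 in muscle: miR-146a-5p (2.38) and miR-142a-5p (1.41) led towards liver, and miR-150-5p (-2.56), a miRNA of mature lymphocytes, and miR-155-5p (-2.57), of activated immune cells, towards muscle. The majority turned with the total without the leading entries, which called 1 higher in liver and 3 in muscle, and there miR-142a-5p was not called (0.59; edgeR adjusted p = 0.105). Another of those higher in liver, miR-142a-3p (0.86), also lost its call there (0.02). It was lost too with RLE (0.63; edgeR adjusted p = 0.0954), DESeq2, either other filter, all 20 inputs, the mouse block and entries of equal reads counted once. The same held without liver library 5 or muscle library 1, 2 or 3.

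The fibroblast and smooth muscle list was higher in muscle for all 10 members, with a median of -1.64, and 7 of these calls held with total count. The most abundant, miR-143-3p of smooth muscle, had 9012, 8419, 7326, 10170 and 13358 CPM in liver and 16592 to 22285 CPM in muscle (-1.74 ± 0.21 SE; edgeR adjusted p = 8.92e-07). The stromal miRNA miR-199a-3p was at 349 to 1269 CPM in liver and 876 to 1740 CPM in muscle, so its groups overlapped in CPM although it was called (-1.64). The 4 endothelial entries, of the miR-126 hairpins, were all higher in muscle on the TMM scale, with RLE and with the total without the leading entries, and none was called with total count. Of these miR-126a-3p had 3871 to 6120 CPM in liver and 3469 to 5130 CPM in muscle. Its CPM ranges overlapped. Its log2 fold change was -0.67 (edgeR adjusted p = 0.000678), with -1.54 for the total without the leading entries and 0.15 for total count. The calls of miR-126a-5p and miR-126b-3p were lost without liver library 1 or 5 (edgeR adjusted p = 0.0541 to 0.0645), in a fit of all 20 inputs and with the mouse block, and the 4 entries come from 2 overlapping hairpins. Of the 10 tested members of the neuron and glia list, 7 were higher in liver and 2 in muscle (median 0.68) and 1 and 2 with the total without the leading entries. The neuronal miR-124-3p had means of 19.4 CPM in liver and 7.18 CPM in muscle (0.64). Its call was lost with RLE (0.40; edgeR adjusted p = 0.127), DESeq2, either other filter, all 20 inputs, the mouse block and entries of equal reads counted once, and it turned to -0.25 with the total without the leading entries. The call was also lost without liver library 3 or without muscle library 1, 2, 3 or 4 (edgeR adjusted p = 0.0523 to 0.0702). Whether any of these cell types contributed to the other differences was not tested.

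Large families present in most cells differed less. Of the let-7 guide strands, which hold back proliferation in differentiated cells, 7 of 9 were higher in liver, and let-7d-5p (-0.37) and let-7i-5p (-0.59) were higher in muscle. The call of let-7d-5p was lost without liver library 1, 2, 3 or 5 (edgeR adjusted p = 0.101 to 0.17), and both turned towards liver with total count (0.49 and 0.22). The median was 0.76, and 1 member was called higher in liver when the leading entries were left out of the total. The largest difference was that of let-7g-5p, with 19506, 15690, 14260, 17745 and 18505 CPM in liver and 2907 to 3369 CPM in muscle, at 1.62 ± 0.19 (SE; edgeR adjusted p = 6.02e-07). The seed family GAGGUAG was 1.00 higher in liver, and 0.07 with the library total without the leading entries (edgeR adjusted p = 0.761). With the total of the entries that matched a sequence it turned to -0.52 (edgeR adjusted p = 0.0132). The growth-promoting miR-17/92 cluster and the related miR-106b cluster were higher in liver for 7 of 9 (median 0.83), led by miR-92a-3p with 778 to 1687 CPM in liver and 118 to 194 CPM in muscle. Without the leading entries in the total, 1 of the 9 was called. Of 11 miR-30 entries 2 were higher in liver and 3 in muscle, and the seed family GUAAACA did not pass the test at -0.21 (edgeR adjusted p = 0.314). That family held only the entries that matched a sequence, miR-30a-5p, miR-30c-5p, miR-30e-5p and miR-384-5p. It was called towards muscle with RLE (-0.45) and towards liver with the library total of all entries (0.55). Total count gave 8 and 0 calls for these entries, and the total without the leading entries 0 and 8. Of the miR-15/16 family, which restrains the cell cycle, 2 of 9 entries were higher in liver and 3 in muscle. Muscle had more of miR-195a-5p (-1.71) and miR-497a-5p (-1.93), which share a hairpin cluster, while miR-16-5p did not pass the test (0.13). With total count 5 entries were higher in liver and 3 in muscle, miR-16-5p among the former (0.98). With the total without the leading entries the counts were 0 and 6, and miR-16-5p was called towards muscle (-0.69). The miR-29 family, which targets collagens, had 1 of 4 called, miR-29c-5p at -2.01, against 2 higher in liver and 1 in muscle with total count and 0 and 3 with the total without the leading entries.

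The miR-23/27/24 clusters had 5 of 8 tested entries higher in muscle and none higher in liver, with a median of -0.87, although total count gave 3 higher in liver and 1 in muscle and the total without the leading entries 0 and 8. Of the group of miR-99, miR-100 and miR-125 entries 4 of 9 were higher in muscle, among them miR-100-5p (-1.49) and miR-125b-5p (-0.96), and 1 was higher in liver. This turned to 1 in muscle and 4 in liver with total count, where miR-125b-5p was not called (-0.07; edgeR adjusted p = 0.811), and was 8 and 0 with the total without the leading entries. Of miRNAs linked to lipid and glucose handling, 5 of 8 were higher in liver and 2 in muscle, with 6 and 0 for total count and 3 and 2 for the total without the leading entries. The insulin-pathway relatives miR-103-3p and miR-107-3p were 0.83 and 1.56 higher in liver, and miR-26a-5p (-0.83) and miR-22-3p (-0.70) were higher in muscle. The call of miR-103-3p was lost with the total without the leading entries (-0.01; edgeR adjusted p = 0.964), with no filter and with the mouse block, and that of miR-26a-5p with total count (-0.00; edgeR adjusted p = 0.992). With total count miR-22-3p turned to 0.20. Its call was also lost in a fit of all 20 inputs (edgeR adjusted p = 0.0858) and without liver library 1 (0.0523). The group of miR-193 and miR-365, known from brown fat, the tissue in which the transgene is driven, had 3 tested entries. For miR-193b-3p, liver had 0 counts and muscle 139, at least 18.2-fold higher in muscle on the TMM scale and at least 10.4-fold by total count. Neither tissue held more than a mean of 29.7 CPM of miR-365-3p.

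**Figure D5:**
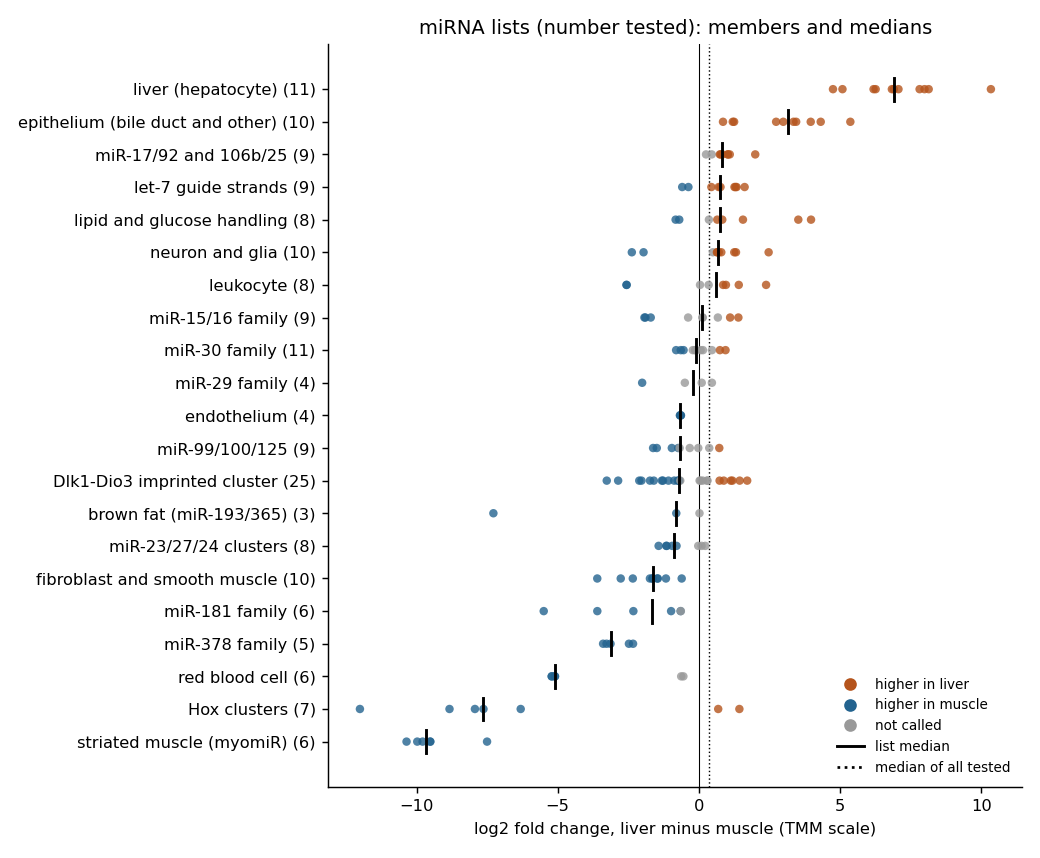
Log2 fold change, liver minus muscle on the TMM scale, of every tested member of the 21 miRNA lists, ordered by median, with the number tested in parentheses. Points are coloured by call, a short line marks each list's median and the dotted line the median of all tested miRNAs, 0.35. The hepatocyte and epithelial lists lie wholly towards liver and the myomiR list wholly towards muscle, and families such as let-7, miR-30 and miR-15/16 straddle 0.

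Members of one genomic cluster were compared next. Hairpins on the same strand with gaps of at most 10 kb were joined, which gave 37 clusters with at least 2 tested hairpins. In 10 of them every tested entry was higher in liver, in 6 every one was higher in muscle, in 3 entries were called in both directions, and in the rest at least 1 entry was not called. These counts rest on the TMM calls alone. Among the 10 were miR-17/92, let-7b with let-7c, and miR-200c with miR-141. With the total without the leading entries, miR-200c-3p and miR-141-3p were not called. That total called 1 of 9 let-7 guide strands and 1 of 9 miR-17/92 and miR-106b entries higher in liver. With total count, 3 of 6 miR-181 entries were called higher in muscle. Of the 37 clusters 16 share an entry with another, as miR-194-5p and miR-181a-5p are made from 2 loci each, and both miR-3071 entries, of another cluster, hold the same values as those of miR-136 on the opposite strand, so the clusters are not independent. The liver clusters included miR-192 with miR-194-2, miR-194-1 with miR-215, miR-182 with miR-183 and the X-linked miR-221 with miR-222, of which miR-221-3p was 1.67 and miR-222-3p 1.85 higher. The muscle clusters included miR-206 with miR-133b, both miR-181a and miR-181b loci, and miR-199a-2 with miR-214. The mixed ones were the let-7a-1, let-7f-1 and let-7d cluster, the X-linked miR-322 to miR-542 cluster and the miR-379 to miR-410 part of the imprinted Dlk1-Dio3 region, whose miRNAs are made from the maternal chromosome. Over that region 6 of 25 list members were higher in liver and 13 in muscle, from -3.27 to 1.71, with a median of -0.69. This split was 11 and 6 with total count and 1 and 18 with the total without the leading entries. Its most abundant member, miR-127-3p, was at 605 to 981 CPM in liver and 678 to 1132 CPM in muscle (-1.08), and was not called with total count (-0.23; edgeR adjusted p = 0.315).

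Some miRNAs stood at close to equal levels. Of the 25 with at least 1000 CPM in both tissues, the smallest differences were those of miR-30d-5p (0.06), miR-29a-3p (0.10), miR-30a-5p (-0.12), miR-27b-3p (0.22), miR-99a-5p (-0.33) and miR-30c-5p (-0.54). The last of these passed the test (edgeR adjusted p = 0.00685). Their nearness belongs to the TMM scale: total count put the 6 at 0.28 to 1.02 and the total without the leading entries at -1.39 to -0.67. In CPM miR-30d-5p was higher in each liver library, at 6316, 5935, 5964, 6762 and 8267 CPM against 3133 to 4023 CPM, and it was called towards liver by total count (0.86) and towards muscle by the total without the leading entries (-0.85).

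The balance of the 2 arms of a hairpin was compared within each library. The log2 ratio of 5p to 3p counts was tested in 31 hairpins by the exact permutation test, and 5 (16.1%) differed, each at the smallest p the design allows (0.00794, adjusted 0.0492). The count was 12 with limma on the same ratios, 13 with limma and the replicate block by title number, and 0 with a mean of at least 50 counts per arm. It was 10 without muscle library 3 and 0 without any other single library, and 4 against 5 libraries cannot reach as small a p. The median absolute difference over the 31 was 0.457. The largest was that of miR-411, of the Dlk1-Dio3 region, whose 5p arm led by 1.43 ± 0.34 (SD, n = 5) in liver and 3.99 ± 0.28 in muscle. Of the same region, miR-434 changed its leading arm, from the 5p arm in liver (0.62 ± 0.25) to the 3p arm in muscle (-0.95 ± 0.13). The leading arm of miR-335 changed as well, on average, from -0.23 ± 0.45 in liver to 1.03 ± 0.32 in muscle. In miR-127 the 3p arm led in both tissues, by more in liver (-5.07 ± 0.30 against -4.04 ± 0.10), and in miR-423 by more in muscle (-0.88 ± 0.16 against -2.35 ± 0.63). For each of the 5 the liver and muscle values did not overlap.

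Among the tested miRNAs with a sequence, 53.5% of the 127 higher in liver began with U, against 38.4% of the 86 higher in muscle and 46.9% of all 275. An A at the first base was found in 18.9, 34.9 and 26.5% of them. Both counts rest on the TMM calls and are given as a description.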

How the data were processed

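The authors deposited expected counts, estimated counts for 1894 mature miRNA entries in 40 libraries, from Trizol RNA and the NEBNext small RNA kit, per the labels. Of the positive values in the 10 libraries used, 19.8% were whole within 0.001, and rounding to whole counts changed a library total by at most 0.00824%. The submitters' processing notes name fastp, STAR, featureCounts and mm10. Versions, strandedness and the handling of multiply matching reads: not given in the sources used here.

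A total of 816 entries had a count. The 318 kept by filterByExpr by group were tested in R 4.3.3 with edgeR 4.0.16 (estimateDisp, glmQLFit, glmQLFTest, TMM, two-sided, Benjamini-Hochberg adjusted p under 0.05). DESeq2 1.42.0 and limma 3.58.1 were alternatives. The fit was tested on simulated data built from 1 profile for both tissues, with changes in both directions. That does not test the scaling between tissues led by different miRNAs. Ratios of arms or of near-identical miRNAs used counts plus 0.5, a mean of at least 20 counts per miRNA and tissue, and an exact permutation test over 252 arrangements (numpy 2.4.6). The exact intervals were computed with scipy 1.17.1. The ratios of near-identical miRNAs and their alternatives were chosen after seeing the data.

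By their library names all inputs were in 1 pool, and the names do not say what was pooled. The labels name mice but no further replicate structure, so p-values measure the spread between mice within a tissue. No 2 libraries of a tissue agreed within sampling noise (chi-square per degree of freedom 13.2 to 284). With 5 libraries each, only mice 3 and 9 gave both tissues. Replicate numbers of the titles do not mark shared mice.

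Named were the 15 largest called differences each way with at least 100 CPM, the 10 most abundant miRNAs of each tissue, up to 4 of each of 21 lists by abundance, the 6 most equal with at least 1000 CPM in both, and the largest called arm differences. Others were added after their values were seen. The comparison and the lists were chosen with earlier results of these data known.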

Additional observations from a re-analysis of the deposited data

Results flagged for a closer look

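Of 185 groups of 5 values examined for the named miRNAs and arm ratios, 7 had one library standing apart, its gap to the nearest other exceeding 0.71 of the whole range. Chance alone gives about 1 in 20. In liver library 5, miR-148a-3p was at 106250 CPM, with the next liver library at 75056, and miR-16-1-3p, the lesser strand of a miR-16 hairpin, at 126.7 CPM with the next at 82.3. Liver library 4 had the smallest total count of the 10 libraries and the highest TMM factor (1.89). In it miR-128-3p was at 589 CPM (next 422), miR-365-3p at 62.2 CPM (next 28.4) and miR-29b-3p, of the collagen-targeting miR-29 family, at 725 CPM (next 265). Liver library 2 had 1166 CPM of miR-27a-3p, with the next at 907. In muscle library 1, let-7a-5p was at 1245 CPM, with the next muscle library at 1047. The part of depth or scaling in these values was not tested.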

How the results depend on the processing

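Scaling limited the comparison most. Of 111 single miRNAs followed, 15 turned round under total count: miR-30a-5p (0.68), miR-22-3p (0.20), miR-126a-3p and miR-126b-5p (0.15 each), miR-126a-5p and miR-126b-3p (0.20 each), miR-365-3p (0.052), let-7i-5p (0.22), let-7d-5p (0.49), miR-30c-5p (0.28), miR-30e-5p (0.16), miR-23b-3p (0.82), miR-99a-5p (0.47), miR-181d-5p (0.16) and miR-379-5p (0.094). With the total that leaves out the leading entries 15 turned round: miR-146b-5p (-0.93), miR-375-3p (-0.011), miR-7b-5p (-0.061), miR-9-5p (-0.21), miR-193a-5p (-0.84), miR-30d-5p (-0.85), miR-29a-3p (-0.69), miR-16-5p (-0.69), miR-322-3p (-0.76), miR-27b-3p (-0.67), miR-99b-5p (-0.54), miR-541-5p (-0.61), miR-10a-3p (-0.17), miR-124-3p (-0.25) and miR-103-3p (-0.013). The 2 scalings gave 62 miRNAs higher in muscle and 53 higher in liver, in that order. The median log2 fold change was 0.12 with RLE, 1.20 with total count, -0.50 without the leading entries, -0.26 over the 816 entries with no filter, 0.12 with DESeq2 and 0.23 in a fit of all 20 inputs. With no filter 200 entries were higher in muscle. Of 215 seed families 89 were higher in liver and 74 in muscle, with 24 and 156 under the total of the entries that matched a sequence and 154 in muscle with no filter. Scalings of the families by the library total were added after seeing the data: the total of all entries gave 123 and 39, and the total without the leading entries 32 and 114. The cause of these shifts was not tested.

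Leaving out each library in turn gave 111 to 150 miRNAs higher in liver, 87 to 116 in muscle, a median of 0.31 to 0.46, 88 to 104 and 61 to 77 seed families, 0 to 10 arm ratios and 16 to 21 pair ratios. With 4 against 5 libraries the smallest possible p is larger, so the arm count of 0 says nothing of stability. A mean of at least 50 counts left 0 arm ratios, but only 1 of the 5 called hairpins had enough counts to be retested. Limma called 12, and 13 with the replicate block by title number. That replicate block, whose numbers do not mark shared mice, gave 148 miRNAs higher in liver and 111 in muscle. Samples with the same number correlated at -0.126 to 0.279 and 3 of 5 matched best with their own number. A replicate block by mouse, for which only mice 3 and 9 could be used, gave 86 and 102 with a median of 0.21, and miR-146b-5p turned to -1.19. Shallow liver libraries limit what can be said of miRNAs under about 4.44 CPM.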

Other observations

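Muscle libraries 4 and 5, from mice 8 and 9, were the most alike of any 2 within a tissue (Spearman correlation 0.949, chi-square per degree of freedom 13.2), and for several muscle miRNAs they lay together at one end of the range. They held 34619 and 32102 CPM of miR-133a-3p, against 14710 to 24972 CPM in the other 3, and 227 and 241 CPM of miR-196a-5p, against 128 to 152 CPM. For the passenger strand miR-378a-5p they held 244 and 258 CPM, against 79.3 to 134 CPM. They were lowest for miR-206-3p (3446 and 3134 CPM, against 4171 to 4921 CPM) and for miR-486a-5p (131 and 135 CPM, against 262 to 429 CPM). The liver library of mouse 9 did not match its muscle library best (correlation of deviations 0.225). The libraries share no label that sets them apart from the other muscle inputs apart from the mouse.

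Several pairs of entries annotated on opposite strands of one hairpin held equal values in these libraries, among them miR-486a-5p with miR-486b-3p, miR-126a-3p with miR-126b-5p, miR-24-3p with miR-3074-5p and miR-136-3p with miR-3071-5p. In all, 16 pairs kept a constant ratio, and counting each once left 300 miRNAs tested, with 120 higher in liver and 104 in muscle.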
